A study of Mus musculus with 30 samples.

Results

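The genes of fatty acid oxidation and of the peroxisome were followed in cultured fat cells given indoxyl sulfate or oxidised LDL, with or without the peptide pNaKtide. The set held 37 listed genes, matched from Ensembl identifiers to mouse symbols, each with more than 14 counts summed over the 30 libraries. All 37 passed that filter, among 54232 genes in the count table and 20139 genes that passed it and were tested. Apart from this minimum of counts, no measured value and no change between groups entered the rule, although the list was drawn up with earlier results of the same data known.

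The cells were 3T3-L1, an established mouse preadipocyte line, and every group, the controls included, was kept in adipogenic medium with insulin, dexamethasone, isobutylmethylxanthine and indomethacin. The 6 groups of 5 libraries each were untreated control cells (Control), cells given pNaKtide at 0.7 µM (pNaKtide), cells given indoxyl sulfate, a uremic toxin, at 100 µM (IS), cells given indoxyl sulfate and pNaKtide (IS + pNaKtide), cells given oxidised LDL at 50 µg/mL (oxLDL), and cells given oxidised LDL and pNaKtide (oxLDL + pNaKtide). pNaKtide is a cell-permeant peptide that blocks signalling from the Na,K-ATPase through Src. The labels give 5 days of treatment and the study's methods a shorter time, and the labels name adipose tissue in the text on extraction although source and cell line are 3T3 cells. A single line in culture holds no other cell types of fat tissue and no blood supply. No source says that the 5 libraries of a group came from separate cultures, so the p-values measure only the spread between these libraries, which may be technical. The libraries of a group were not equally distinct: over the 60 pairs within groups, the chi-square of their counts per degree of freedom, which is near 1 for counting error alone, ranged from 1.30 to 57.1 with a median of 11.1. It was lowest for IS + pNaKtide replicates 3 and 4 (1.30), pNaKtide replicates 1 and 2 (1.36) and pNaKtide replicates 4 and 5 (1.40).

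Long-chain fatty acids enter mitochondria as carnitine esters, made and taken apart by carnitine acyltransferases and carried by a carrier of the inner membrane. Inside, they are shortened in repeated cycles of dehydrogenation, hydration, a further dehydrogenation and thiolysis, and the electrons of the first step pass through the electron transfer flavoprotein to the respiratory chain. Peroxisomes shorten very-long-chain and branched fatty acids by a parallel route, after import by ABC transporters of their membrane, and the peroxins build the organelle and import its enzymes. In adipocytes both routes burn or remodel fatty acids that are not stored as triglyceride, and many of these genes are known targets of the PPAR family of nuclear receptors.

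The gene counts of a library summed to 6945498 to 15159877 (median 11524210), which sets the counting error. Values are given as CPM, counts scaled to sequencing depth after TMM normalization, and a gene was called at a BH-adjusted p-value below 0.1 in edgeR's quasi-likelihood test over all 20139 genes. On the first principal component 4 libraries lay apart from the rest of their groups: replicate 1 of the controls scored -25.8 against 6.47 to 29.9 for the other controls, replicate 4 of IS 28.2 against -36.7 to -23.2, replicate 3 of pNaKtide -5.36 against 15.9 to 36.6, and replicate 4 of oxLDL + pNaKtide 67.5 against 14.5 to 33.2. The library labelled control replicate 1 thus lay within the range of the other IS libraries, and the library labelled IS replicate 4 within that of the other controls, and their slopes over GC content, -0.195 and 0.272, lay there too (-0.353 to -0.195 in the other IS libraries and 0.0197 to 0.331 in the other controls). The labels were kept, and the counts of IS against Control are given with and without these 2 libraries. Libraries also differed in how counts followed GC content: the log2 level per 10 percentage points of GC sloped by -0.409 to -0.128 in the oxLDL libraries, by 0.104 to 0.649 in the oxLDL + pNaKtide libraries and by -0.195 to 0.331 in the controls, and the lowest of the controls was replicate 1. Each comparison was therefore also fitted after a smooth trend over GC content and length had been removed from every library (the trend-adjusted value), and the part of these trends in the results was not tested. The summed level of 10 adipocyte markers was 14900 to 19100 CPM in the controls, 14000 to 18500 with oxLDL, 18000 to 21000 with oxLDL + pNaKtide and 12600 to 16000 with IS, and 8 preadipocyte and fibroblast markers summed to 4610 to 5890, 3760 to 4360, 3790 to 5460 and 2870 to 4710 CPM. Of the adipocyte markers 4 of 10 fell with oxLDL, 6 of 10 rose with oxLDL + pNaKtide against oxLDL and 5 of 10 fell with IS. Over all genes tested, 36.0%, 48.3% and 7.94% were called in these comparisons, the shares to set beside each marker count here. Of the preadipocyte markers 2 of 8 fell, 2 rose with 1 falling, and 3 fell in the same comparisons, and the part of either list in the results was not tested. Macrophage and leukocyte markers summed to at most 14.8 CPM in any library, with Ptprc and Itgam at 0 counts, endothelial markers to at most 0.613 CPM and brown adipocyte markers to at most 7.11 CPM. Of the 4 macrophage and leukocyte markers tested 1 fell with oxLDL, of the 3 brown adipocyte markers tested 1 rose with oxLDL and 1 fell with oxLDL + pNaKtide against oxLDL, and the 1 endothelial marker tested was not called in either comparison. In whole-culture RNA, fewer cells of a type and less RNA per cell cannot be told apart.

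With oxLDL, 19 of the 37 genes (51.4%) were called against the controls, 8 higher and 11 lower, where 36.0% of all genes tested were called. Both peroxisomal ABC transporters rose, Acadm rose while Acads fell, and the alpha subunit of the electron transfer flavoprotein rose while its beta subunit fell. With the trend over GC content and length taken out, 7 of the 19 were called in the same direction. Among the genes just named these were only Acadm and the alpha subunit. The median log2 change was -0.06 over the 37 genes and 0.04 over all genes tested. The oxLDL and control libraries did not overlap for 7 called genes, and 8.35% of all genes tested did not overlap. With scaling by library size alone, which moved the median of all genes from 0.04 to 0.17, the split was 12 higher and 4 lower, and 68.6% of all called genes were higher against 50.1% before.

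When pNaKtide was given together with oxLDL, 24 of the 37 genes (64.9%) were called against oxLDL alone, 12 higher and 12 lower, where 48.3% of all genes tested were called. Abcd2 fell the most among the called genes, to 0.508 times its level with oxLDL alone, and Etfb rose the most, by 1.88-fold. Without oxLDL + pNaKtide replicate 4 it was 20 genes and 41.4% of all genes tested. The libraries did not overlap for 15 genes, where 28.4% of all genes tested did not overlap. The median log2 change was 0.00 over the 37 genes and -0.09 over all genes tested. With scaling by library size alone, which moved the median of all genes to -0.30, 26 genes were called, 8 higher and 18 lower, and 26.0% of all called genes were higher against 45.9% before. This comparison and the one of oxLDL with the controls share the 5 oxLDL libraries, with opposite sign, so their values are set side by side only.

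**Figure D1:**
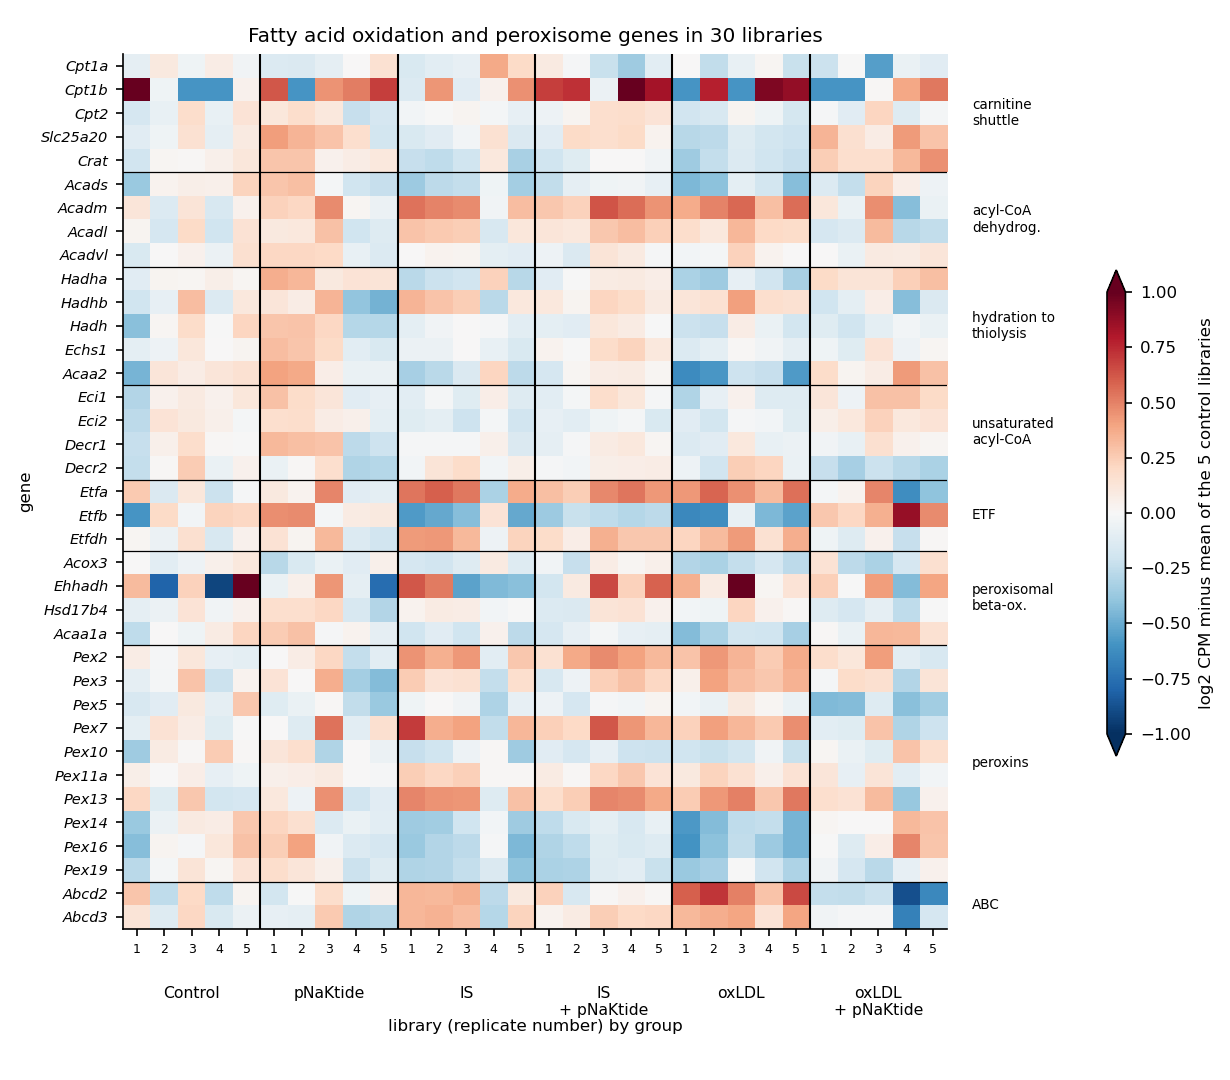
Level of the 37 genes (rows, by role) in the 30 libraries (columns, by group and replicate), as log2 CPM minus the mean of the 5 control libraries, with the colour capped at 1 in either direction. Control replicate 1 and IS replicate 4 differ in colour from the other libraries of their groups, and Cpt1b and Ehhadh, the genes with the fewest counts, vary within every group.

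**Figure D2:**
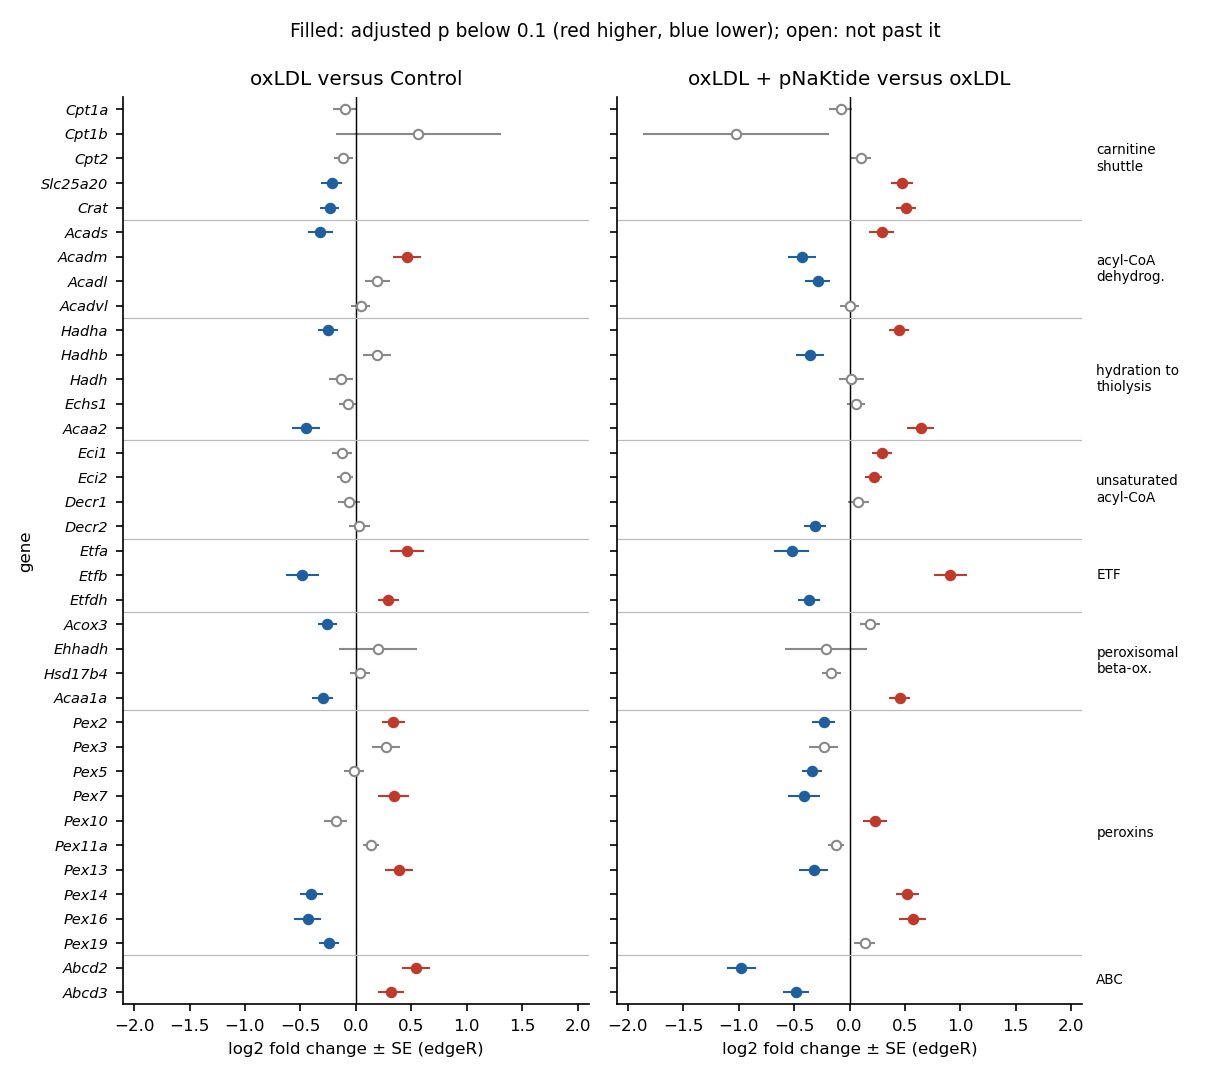
Log2 fold change of each gene with its standard error (edgeR, 5 libraries against 5) for oxLDL against Control (left) and oxLDL + pNaKtide against oxLDL (right). Filled points passed an adjusted p of 0.1: 8 higher and 11 lower on the left, 12 higher and 12 lower on the right. The direction of Eci2 on the right flips to -0.00404 with scaling by library size alone.

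In the carnitine shuttle, oxLDL lowered 2 of 5 genes, Crat and Slc25a20, and each of these rose with oxLDL + pNaKtide against oxLDL. Crat, the carnitine acetyltransferase that buffers short acyl-CoA, was at 593, 688, 682, 703 and 733 CPM in control replicates 1 to 5, at 530, 574, 615, 590 and 578 CPM with oxLDL, and at 804, 760, 763, 847 and 929 CPM with oxLDL + pNaKtide. Only oxLDL replicate 3 reached above the lowest control library, replicate 1, while every oxLDL + pNaKtide library lay above all control and oxLDL libraries. Crat fell with oxLDL by 0.24 on the log2 scale (SE 0.09, edgeR adjusted p = 0.0449) and rose with oxLDL + pNaKtide against oxLDL by 0.51 (SE 0.09, edgeR adjusted p = 5.39e-05). Its fall with oxLDL was not called without control replicate 5 or without oxLDL replicate 1, with an edgeR adjusted p of up to 0.115.

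Slc25a20, the carnitine-acylcarnitine carrier of the inner membrane, was at 35.6, 37.5, 42.9, 36.3 and 41.1 CPM in the controls and at 31.8, 32.1, 35.3, 33.9 and 33.3 CPM with oxLDL. With oxLDL + pNaKtide it was at 48.9, 43.1, 40.7, 51.8 and 47.0 CPM. The oxLDL libraries lay below all libraries of both other groups. The fall with oxLDL was 0.22 on the log2 scale (SE 0.10, edgeR adjusted p = 0.0858) and was lost on leaving out any 1 of 7 of the 10 libraries, all but control replicate 1 and oxLDL replicates 3 and 4, with an adjusted p of 0.102 to 0.199. Against oxLDL the rise with oxLDL + pNaKtide was 0.47 (SE 0.10, edgeR adjusted p = 0.000227), and the trend-adjusted rise was 0.65 (adjusted p = 1.42e-05). The trend-adjusted fall of Crat with oxLDL was not called, while its trend-adjusted rise of 0.38 with oxLDL + pNaKtide was (edgeR adjusted p = 0.000112).

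Neither entry enzyme of the shuttle was called. Cpt1a, the liver-type carnitine palmitoyltransferase of the outer membrane and the controlled step of the pathway, ranged from 76.1 to 86.7 CPM in the controls, from 68.4 to 82.3 CPM with oxLDL and from 55.4 to 80.9 CPM with oxLDL + pNaKtide. Cpt2, its partner on the inner membrane, ranged from 191.3 to 243.0, from 188.2 to 219.4 and from 196.3 to 248.8 CPM in the same groups. The edgeR adjusted p for Cpt1a was 0.503 with oxLDL and 0.583 for oxLDL + pNaKtide against oxLDL, and for Cpt2 it was 0.362 and 0.382, which does not show that they were equal. Cpt1b, the muscle-type enzyme, was close to absent, with 56 counts over 30 libraries and at most 0.41 CPM in any library of these groups, and its log2 change with oxLDL of 0.56 had an SE of 0.74. Cpt1b shares 2744 exon bases, 81.4% of its exon length, with Gm44502 on the same strand.

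Of the 4 acyl-CoA dehydrogenases, which make the first double bond and are sorted by chain length, Acadm (medium chain) rose and Acads (short chain) fell with oxLDL, and each moved the other way with oxLDL + pNaKtide against oxLDL. Acadm was at 254, 212, 256, 209 and 240 CPM in the controls and at 302, 329, 348, 288 and 344 CPM with oxLDL. With oxLDL + pNaKtide it was at 252, 223, 323, 173 and 223 CPM. All oxLDL libraries lay above all controls, while replicate 3 of oxLDL + pNaKtide lay within the oxLDL range. Acadm was 1.37-fold higher with oxLDL, a log2 change of 0.46 (SE 0.13, edgeR adjusted p = 0.0122), and fell by 0.43 with oxLDL + pNaKtide (SE 0.13, edgeR adjusted p = 0.00673). Both calls held with the trend taken out, at 0.39 (adjusted p = 0.0206) and -0.29 (adjusted p = 0.0328).

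Acads was at 220, 290, 296, 294 and 330 CPM in the controls, at 207, 213, 265, 249 and 211 CPM with oxLDL and at 258, 240, 330, 298 and 273 CPM with oxLDL + pNaKtide. Apart from control replicate 1 the controls lay above all oxLDL libraries, and 2 of the oxLDL libraries lay above the lowest oxLDL + pNaKtide library. It fell by 0.32 (SE 0.11, edgeR adjusted p = 0.0332) and rose by 0.29 (SE 0.11, edgeR adjusted p = 0.0371). Without control replicate 5 the fall was not called (adjusted p = 0.109), nor was the rise without oxLDL + pNaKtide replicate 3 (adjusted p = 0.122). The trend-adjusted values of Acads were -0.01 and -0.11, so the direction of its rise turned. Acadl, which acts on long chains, was at 296.1 to 347.2 CPM with oxLDL and at 226.3 to 342.8 CPM with oxLDL + pNaKtide, a fall of 0.29 (SE 0.11, edgeR adjusted p = 0.0352), which was not called without replicate 4 or replicate 5 of oxLDL + pNaKtide (adjusted p up to 0.126) or with the trend taken out (-0.10). Acadvl, for very long chains, was not called (log2 0.04 and 0.00), and with the trend taken out it was called higher with oxLDL, at 0.24, and lower with oxLDL + pNaKtide, at -0.23 (edgeR adjusted p = 0.0408 and 0.0252). On the annotation 42.9% of its exon bases are shared with Dvl2 on the opposite strand, so its reads depend on how strand was used in counting.

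Among the 5 enzymes of hydration to thiolysis, Hadha and Acaa2 fell with oxLDL and rose with oxLDL + pNaKtide against oxLDL, where Hadhb fell. Acaa2, the mitochondrial thiolase that releases acetyl-CoA, was at 138, 207, 201, 208 and 211 CPM in the controls and at 123, 127, 166, 162 and 129 CPM with oxLDL. With oxLDL + pNaKtide it was at 216, 194, 201, 257 and 233 CPM. Only control replicate 1 lay within the oxLDL range, and the oxLDL and oxLDL + pNaKtide libraries did not overlap. It fell with oxLDL to 0.732 times the control level, by 0.45 on the log2 scale (SE 0.12, edgeR adjusted p = 0.0117), and rose by 0.64 with oxLDL + pNaKtide (SE 0.12, edgeR adjusted p = 0.000151). The trend-adjusted values were -0.21 (adjusted p = 0.0426) and 0.33 (adjusted p = 0.000434).

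Hadha and Hadhb encode the alpha and beta subunits of the mitochondrial trifunctional protein, which carries out the later steps of the cycle on long chains. They lie head to head on chromosome 5 of GRCm38, Hadha on the minus strand from 30118304 to 30155162 and Hadhb on the plus strand from 30155248 to 30184593, so that a single stretch separates their annotated starts. That stretch, 85 bases with 69.4% GC, is shown because both genes start from it. It was read on the plus strand from the RefSeq promoter sequences of GRCm38.p6, with the GC box GGGCGG, the letters bound by Sp-family factors, in capitals.
Hadha and Hadhb, between the starts, chr5:30155163-30155247, plus strand: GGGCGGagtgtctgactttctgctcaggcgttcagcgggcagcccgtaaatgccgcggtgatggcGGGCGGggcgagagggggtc
The stretch holds the GC box 2 times. A GC box on either strand was present in 24 of the 29 genes of the set that have a promoter in the RefSeq table (82.8%) and in 38.2% of 27025 genes, each over 250 bases before to 50 after the start. It was in 10 of 10 genes with a promoter that rose and 7 of 10 that fell with oxLDL + pNaKtide against oxLDL, and in 3 of 6 that rose and 8 of 8 that fell with oxLDL. These are counts of letters in a window and not of bound sites. The 29 genes had passed the minimum of counts, while the 27025 were taken without it, so the sets are unlike.

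With oxLDL + pNaKtide against oxLDL the subunits moved in opposite directions. Hadha was at 461, 508, 506, 519 and 506 CPM in the controls, at 401, 391, 471, 438 and 398 CPM with oxLDL and at 571, 546, 546, 588 and 615 CPM with oxLDL + pNaKtide. Hadhb was at 238, 260, 340, 250 and 295 CPM, at 298, 306, 365, 308 and 304 CPM and at 239, 256, 287, 204 and 248 CPM in the same groups. For Hadha the oxLDL + pNaKtide libraries lay above all control and oxLDL libraries, while for Hadhb they lay below all oxLDL libraries. Hadha fell with oxLDL by 0.25 (SE 0.09, edgeR adjusted p = 0.0366) and rose by 0.45 with oxLDL + pNaKtide (SE 0.09, edgeR adjusted p = 0.000215). Hadhb had a log2 change of 0.19 with oxLDL that was not called (SE 0.13, edgeR adjusted p = 0.28) and fell by 0.36 with oxLDL + pNaKtide (SE 0.13, edgeR adjusted p = 0.0261). Without oxLDL + pNaKtide replicate 4 that fall was not called (adjusted p = 0.102). The GC content of the longest transcript differs between them, at 51.3% for Hadha and 39.1% for Hadhb. With the trend taken out, Hadha kept its rise at 0.53 (adjusted p = 0.000101) and was not called with oxLDL (adjusted p = 0.102), while the value of Hadhb turned to a rise of 0.47 (adjusted p = 0.0159).

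Echs1, the short-chain hydratase, and Hadh, the dehydrogenase for medium and short chains, were not called in either comparison. Hadh ranged from 233.0 to 361.1 CPM in the controls, from 265.4 to 326.6 CPM with oxLDL and from 270.0 to 304.6 CPM with oxLDL + pNaKtide. Echs1 ranged from 179.7 to 207.9, from 174.5 to 193.9 and from 177.2 to 210.9 CPM. With the trend taken out, Echs1 was called higher with oxLDL + pNaKtide than with oxLDL, by 0.33 (edgeR adjusted p = 0.0179).

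Enzymes that prepare unsaturated acyl-CoA for the cycle showed no called change with oxLDL, with 0 of 4 called by edgeR, 0 of 4 at an unadjusted p below 0.05, and log2 changes of -0.12 to 0.03. With oxLDL + pNaKtide against oxLDL 2 rose and 1 fell. Decr2, the peroxisomal dienoyl-CoA reductase, was at 35.7, 32.5, 44.1, 43.0 and 35.5 CPM with oxLDL and at 31.5, 29.4, 31.9, 30.8 and 29.7 CPM with oxLDL + pNaKtide. Every library of the second group lay below every library of the first. It fell by 0.31 (SE 0.10, edgeR adjusted p = 0.00912) and by 0.32 with the trend taken out (adjusted p = 0.00181).

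Eci1, the mitochondrial enoyl-CoA isomerase, was at 73.5, 85.9, 93.6, 83.2 and 83.2 CPM with oxLDL and at 99.0, 87.7, 111, 112 and 104 CPM with oxLDL + pNaKtide. Only replicate 2 of oxLDL + pNaKtide lay within the oxLDL range. Its rise of 0.29 (SE 0.09, edgeR adjusted p = 0.00961) was 0.02 with the trend taken out and was then not called. Eci2, an isomerase found in both organelles, ranged from 124.8 to 140.4 CPM with oxLDL and from 147.2 to 166.0 CPM with oxLDL + pNaKtide, without overlap, and its rise was 0.22 (SE 0.07, edgeR adjusted p = 0.018), 0.48 with the trend taken out and -0.00404, with the sign turned, under scaling by library size alone. Decr1, the mitochondrial dienoyl-CoA reductase, was not called (adjusted p = 0.691 and 0.552), and with the trend taken out it was called lower with oxLDL, at -0.33, and higher with oxLDL + pNaKtide, at 0.46.

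The electron transfer flavoprotein is a dimer of Etfa and Etfb that takes electrons from the acyl-CoA dehydrogenases, and Etfdh is the membrane enzyme that hands them on to ubiquinone. All 3 genes were called with oxLDL and again with oxLDL + pNaKtide against oxLDL. Etfb was at 69.6, 120, 103, 122 and 121 CPM in the controls and at 67.0, 67.9, 99.7, 77 and 72.3 CPM with oxLDL. With oxLDL + pNaKtide it was at 127, 121, 135, 192 and 146 CPM. Apart from control replicate 1 the controls lay above the oxLDL libraries, and all oxLDL + pNaKtide libraries did. Etfb fell with oxLDL by 0.48 (SE 0.15, edgeR adjusted p = 0.0189) and rose with oxLDL + pNaKtide by 0.91 (SE 0.15, edgeR adjusted p = 3.58e-05). Etfb shares 617 exon bases with Gm45233 on the same strand, which had 46 counts over 30 libraries against 34027 for Etfb.

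Etfa was at 137, 104, 124, 99.0 and 114 CPM in the controls, at 155, 172, 158, 143 and 168 CPM with oxLDL and at 113, 118, 161, 74.7 and 87.1 CPM with oxLDL + pNaKtide. All oxLDL libraries lay above the controls, and replicate 3 of oxLDL + pNaKtide lay among them. It rose by 0.46 (SE 0.16, edgeR adjusted p = 0.0295) and fell by 0.52 (SE 0.16, edgeR adjusted p = 0.00793). Etfdh was at 139, 131, 153, 122 and 141 CPM, at 159, 171, 184, 152 and 177 CPM and at 133, 125, 141, 117 and 138 CPM. Only control replicate 3 reached the lowest oxLDL library, and the oxLDL + pNaKtide libraries all lay below the oxLDL libraries. Etfdh rose by 0.29 (SE 0.10, edgeR adjusted p = 0.0258) and fell by 0.36 (SE 0.10, edgeR adjusted p = 0.00315).

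With the trend taken out, the values with oxLDL were 0.30 for Etfa (edgeR adjusted p = 0.0873), -0.10 for Etfb and -0.07 for Etfdh, so that only Etfa was still called and Etfdh turned sign. For oxLDL + pNaKtide against oxLDL they were -0.35 for Etfa (edgeR adjusted p = 0.0225), 0.39 for Etfb (edgeR adjusted p = 0.000175) and 0.16 for Etfdh, which turned sign and was not called (adjusted p = 0.18). The GC content of the longest transcript was 45% for Etfa, 57.1% for Etfb and 43.8% for Etfdh.

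The stretches just upstream of Etfa and Etfb are shown because these partner genes, on chromosomes 9 and 7, moved in opposite directions in both comparisons. Each is the 120 bases before the RefSeq start on its own strand in GRCm38.p6, with CCAAT, the letters bound by nuclear factor Y, in capitals on either strand (CCAAT or ATTGG).
Etfa, upstream of the start, chr9:55512244-55512363, minus strand: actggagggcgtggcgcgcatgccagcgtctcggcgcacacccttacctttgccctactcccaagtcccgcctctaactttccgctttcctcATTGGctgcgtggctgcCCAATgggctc
Etfb, upstream of the start, chr7:43443952-43444071, plus strand: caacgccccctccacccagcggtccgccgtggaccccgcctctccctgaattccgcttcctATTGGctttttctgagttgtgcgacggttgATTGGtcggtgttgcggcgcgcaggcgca
Both stretches hold the CCAAT letters 2 times and no GC box, at 63.3% and 64.2% GC. CCAAT was in 11 of the 29 promoters of the set (37.9%) and in 41.1% of the 27025 genes, again taken without a minimum of counts. The direct repeat of AGGTCA after 1 base, the PPAR response element in its strict form, was in 0 of 29 promoters and in 0.0481% of all, and AGGTCA as a single site was in 4 of 29 (13.8%) and in 18.1% of all. No match says only that these letters are not in the window.

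**Figure D3:**
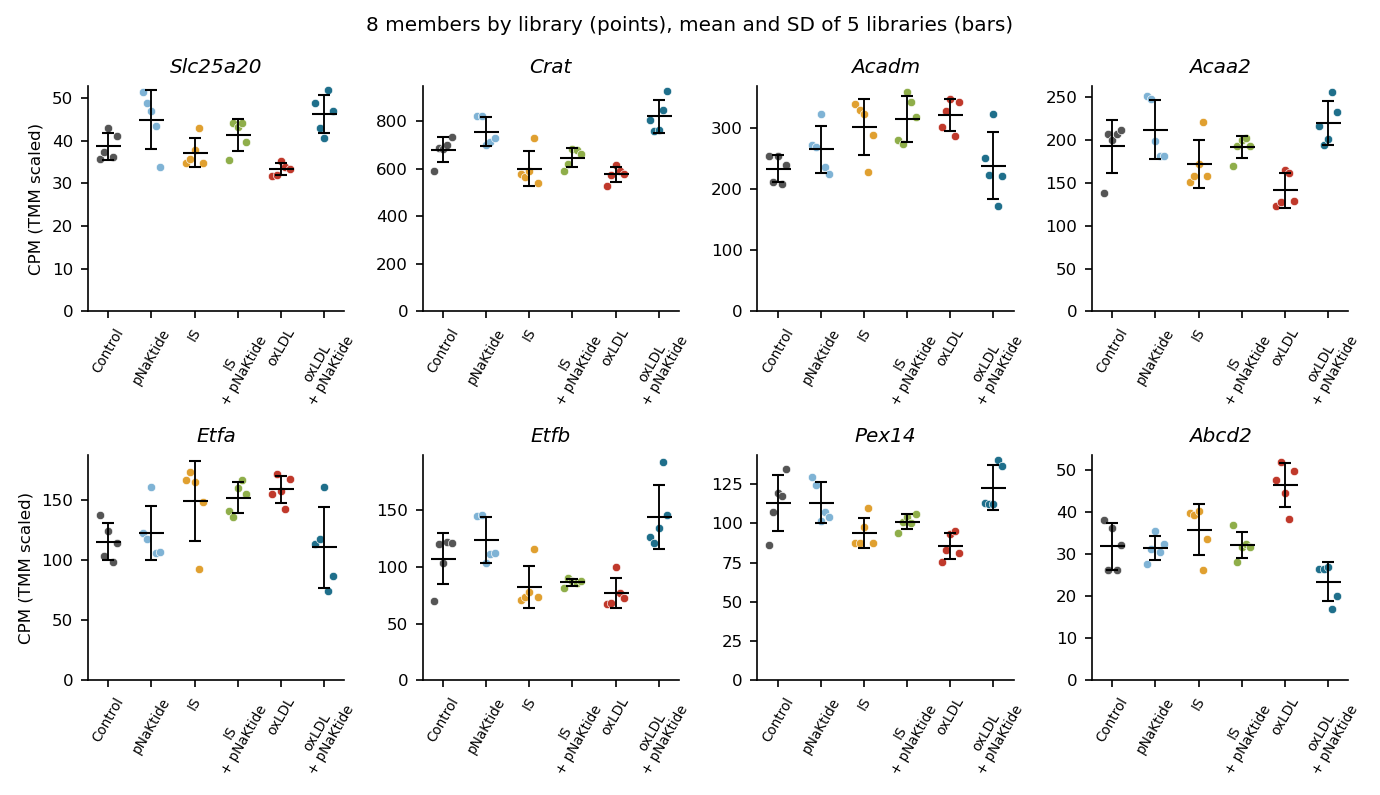
CPM (TMM scaled, from 0) of 8 genes in every library, with bars for the mean and SD of the 5 libraries of each group. By their means, Slc25a20, Crat, Acaa2, Etfb and Pex14 are lowest with oxLDL among Control, oxLDL and oxLDL + pNaKtide, and Acadm, Etfa and Abcd2 are highest there, with IS replicate 4 apart from the other IS libraries in several panels.

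The ratio of partner subunits within a library, taken from the deposited FPKM values, described these shifts without reference to other genes. The Etfa to Etfb ratio was 1.25, 0.549, 0.764, 0.514 and 0.599 in the controls, 1.47, 1.6, 1.01, 1.18 and 1.47 with oxLDL, and 0.567, 0.615, 0.759, 0.247 and 0.378 with oxLDL + pNaKtide. Control replicate 1 lay among the oxLDL libraries and the other controls below them, and no oxLDL + pNaKtide library reached the oxLDL range. The means were 0.735 ± 0.303 (SD, n = 5), 1.35 ± 0.243 and 0.513 ± 0.202. With IS the ratio was 1.23 ± 0.411, and IS replicate 4 was at 0.509 against 1.28 to 1.5 for the others.

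The Hadha to Hadhb ratio was 1.39 ± 0.175 in the controls (1.13 to 1.57), 1.00 ± 0.0424 with oxLDL (0.966 to 1.07) and 1.78 ± 0.276 with oxLDL + pNaKtide (1.44 to 2.17). The oxLDL libraries lay below all libraries of both other groups. The pNaKtide group was at 1.70 ± 0.367 and IS + pNaKtide at 1.28 ± 0.072. With IS it was 1.17 ± 0.431, and IS replicate 4 was at 1.94 against 0.902 to 1.05 for the others, near the oxLDL range. The height of a ratio depends on the gene lengths used and its change between groups does not. A ratio shows unequal change of the 2 genes, not which of them changed, and the subunits differ in GC content as given above.

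**Figure D4:**
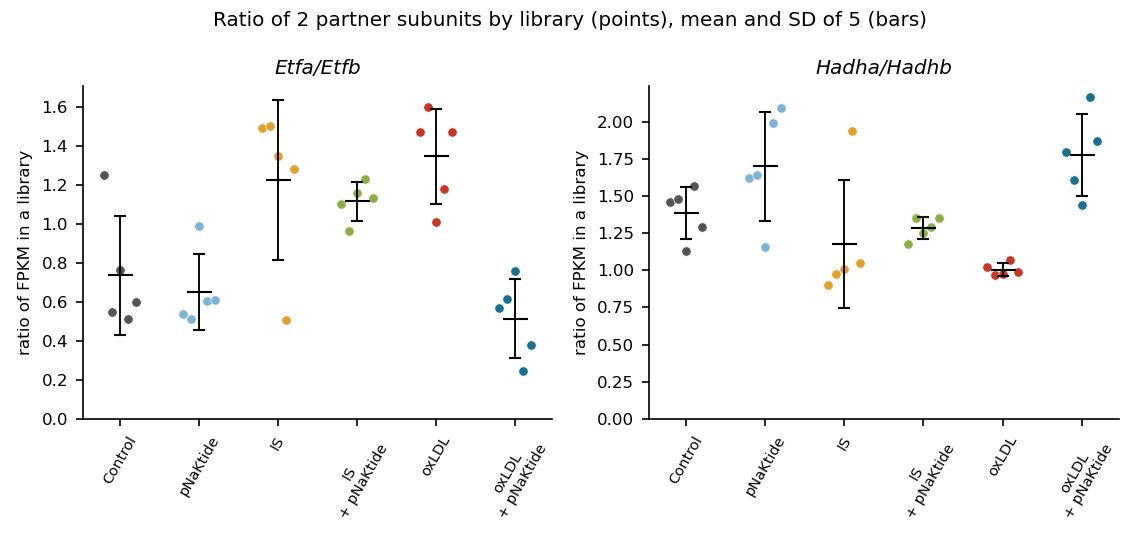
Ratio of the FPKM of Etfa to Etfb (left) and of Hadha to Hadhb (right) in each of the 30 libraries, with bars for the mean and SD of 5 libraries. The oxLDL libraries sit at 1.01 to 1.6 on the left and at 0.966 to 1.07 on the right, and the oxLDL + pNaKtide libraries at 0.247 to 0.759 and at 1.44 to 2.17, with no overlap in either panel.

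In peroxisomal beta-oxidation 2 of 4 genes fell with oxLDL and 1 rose with oxLDL + pNaKtide against oxLDL. Acaa1a, the peroxisomal thiolase, was at 188, 225, 218, 238 and 260 CPM in the controls and at 166, 180, 198, 196 and 178 CPM with oxLDL. With oxLDL + pNaKtide it was at 227, 214, 283, 282 and 249 CPM. The oxLDL libraries lay below all but control replicate 1 and below all oxLDL + pNaKtide libraries. It fell by 0.30 (SE 0.09, edgeR adjusted p = 0.0211) and rose by 0.45 (SE 0.09, edgeR adjusted p = 0.000326), and only the rise was called with the trend taken out, at 0.26. Its count is uncertain because Acaa1b is a near-identical copy with 23304 counts against 74800, and 290 exon bases are shared with Myd88 on the opposite strand.

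Acox3, an oxidase that starts the breakdown of branched acyl-CoA, was at 48.0, 44.6, 46.2, 49.6 and 51.4 CPM in the controls and at 39.1, 38.5, 40.5, 42.7 and 39.9 CPM with oxLDL. All oxLDL libraries lay below all controls. It fell by 0.26 (SE 0.09, edgeR adjusted p = 0.0321) and by 0.22 with the trend taken out (adjusted p = 0.0434). With oxLDL + pNaKtide Acox3 was at 38.4 to 53.7 CPM, and the log2 change of 0.18 was not called (adjusted p = 0.106). Ehhadh, the peroxisomal bifunctional enzyme for straight chains, was at 0.422 to 2.36 CPM in the controls and had 391 counts over 30 libraries, and Hsd17b4, the bifunctional enzyme for branched and very long chains, was at 106.3 to 146.7 CPM over the 3 groups, and neither was called (edgeR adjusted p with oxLDL of 0.72 and 0.787).

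Of the 10 peroxins, oxLDL raised Pex2, Pex7 and Pex13 and lowered Pex14, Pex16 and Pex19. With oxLDL + pNaKtide against oxLDL, 3 rose (Pex10, Pex14, Pex16) and 4 fell (Pex2, Pex5, Pex7, Pex13). Pex13 and Pex14 form the docking site for import receptors together, and they moved in opposite directions in both comparisons. Pex14 was at 86.3, 107, 119, 117 and 135 CPM in the controls, at 75.2, 82.8, 93.5, 94.8 and 80.9 CPM with oxLDL and at 113, 112, 112, 140 and 136 CPM with oxLDL + pNaKtide. Control replicate 1 lay in the oxLDL range, and the oxLDL + pNaKtide libraries lay above all oxLDL libraries. Pex14 fell by 0.40 (SE 0.10, edgeR adjusted p = 0.00925) and rose by 0.52 (SE 0.10, edgeR adjusted p = 0.000169), and both calls held with the trend taken out, at -0.32 and 0.51. Pex14 shares 1776 exon bases with Gm17029 on the opposite strand, which had 165 counts over 30 libraries. Pex13 ranged from 70.3 to 96.4 CPM in the controls, from 95.4 to 115.5 with oxLDL and from 61.6 to 99.7 with oxLDL + pNaKtide, a rise of 0.39 (SE 0.13, edgeR adjusted p = 0.0251) and a fall of 0.32 (SE 0.13, edgeR adjusted p = 0.042), and both turned sign with the trend taken out, at -0.21 and 0.48. The fall of Pex13 was not called without oxLDL + pNaKtide replicate 4 (adjusted p = 0.183). The GC content of the longest transcript was 52.2% for Pex14 and 38.6% for Pex13.

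Pex5, the import receptor for enzymes with a signal at their end, was at 171, 166, 186, 176 and 166 CPM with oxLDL and at 128, 129, 159, 130 and 136 CPM with oxLDL + pNaKtide, without overlap. The controls were at 156, 160, 186, 163 and 210 CPM, with replicates 1 and 2 near the highest oxLDL + pNaKtide library. It fell by 0.34 against oxLDL (SE 0.09, edgeR adjusted p = 0.00246), by 0.54 with the trend taken out, and had no called change with oxLDL alone (-0.02, adjusted p = 0.919). Pex7, the receptor for the signal near the start of a protein, was at 11.1, 13.1, 12.5, 10.9 and 11.8 CPM in the controls and at 13.9, 15.8, 14.9, 14.3 and 16.4 CPM with oxLDL, without overlap. Its rise was 0.34 (SE 0.14, edgeR adjusted p = 0.0633) and was not called without control replicate 4 or 5 or oxLDL replicate 2 or 5 (adjusted p of 0.107 to 0.14). It fell with oxLDL + pNaKtide by 0.41 (SE 0.14, edgeR adjusted p = 0.0183), and the trend-adjusted values of -0.06 and 0.16 turned both directions.

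Pex2 and Pex10 belong to the ubiquitin ligase that recycles the receptors. Pex2 was at 26.9, 25.4, 27.7, 24.2 and 23.8 CPM in the controls and at 31.2, 34.6, 32.4, 30.5 and 33.2 CPM with oxLDL. All oxLDL libraries lay above all controls, a rise of 0.34 (SE 0.10, edgeR adjusted p = 0.0191) that was 0.03 with the trend taken out. Against oxLDL, Pex2 fell by 0.23 with oxLDL + pNaKtide (SE 0.11, edgeR adjusted p = 0.0737) and Pex10 rose by 0.23 (SE 0.11, edgeR adjusted p = 0.0799). Leaving out 1 library ended the call in 6 of 10 cases for either gene, with an adjusted p of up to 0.26 and 0.185. For Pex2 these were oxLDL replicates 2 and 5 and oxLDL + pNaKtide replicates 1, 2, 4 and 5, and for Pex10 oxLDL replicates 1, 2, 3 and 5 and oxLDL + pNaKtide replicates 4 and 5. Both turned sign with the trend taken out, Pex2 to 0.13 and Pex10 to -0.03.

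Pex3, Pex16 and Pex19 place membrane proteins into the peroxisome. Pex16 ranged from 119.6 to 197.2 CPM in the controls, from 106.0 to 135.6 with oxLDL and from 147.3 to 225.8 with oxLDL + pNaKtide, a fall of 0.43 (SE 0.12, edgeR adjusted p = 0.0128) and a rise of 0.57 (SE 0.12, edgeR adjusted p = 0.000404). Neither was called with the trend taken out, and the rise was then 0.10. Pex16 has the highest GC content of the set, 60.1%. Pex19 fell with oxLDL by 0.24 (SE 0.09, edgeR adjusted p = 0.0493), a call lost without control replicate 3 or 5 or oxLDL replicate 1, 2 or 5 (adjusted p of 0.11 to 0.132), while its trend-adjusted fall was 0.37 (adjusted p = 0.0189). Pex3 was not called in either comparison (log2 0.27 and -0.23), and with the trend taken out it was called with the other sign in each, at -0.35 and 0.58. Pex11a, which elongates peroxisomes before they divide, was at 110.4 to 122.6 CPM in the controls, at 121.1 to 136.2 with oxLDL and at 108.6 to 128.1 with oxLDL + pNaKtide, and was not called.

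Both ABC transporters of the peroxisomal membrane rose with oxLDL and fell with oxLDL + pNaKtide against oxLDL. Abcd2, a carrier of very-long-chain and polyunsaturated acyl-CoA that is abundant in fat, was at 38.3, 26.4, 36.3, 26.4 and 32.2 CPM in the controls and at 47.8, 51.9, 44.7, 38.4 and 49.9 CPM with oxLDL. With oxLDL + pNaKtide it was at 26.6, 26.6, 27.1, 17.1 and 20.1 CPM. The oxLDL libraries lay above all libraries of both other groups, if narrowly above control replicate 1. Abcd2 was 1.46-fold higher with oxLDL, a log2 change of 0.54 (SE 0.13, edgeR adjusted p = 0.00783), and fell by 0.98 with oxLDL + pNaKtide (SE 0.13, edgeR adjusted p = 8.55e-06). The trend-adjusted rise was 0.09 and not called (adjusted p = 0.424), and the trend-adjusted fall was 0.35 (adjusted p = 0.000374).

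Abcd3, the carrier of branched acyl-CoA and bile acid precursors, was at 71.6 to 92.3 CPM in the controls, at 87.8 to 105.1 CPM with oxLDL and at 49.8 to 79.4 CPM with oxLDL + pNaKtide. The controls and oxLDL libraries overlapped, and the oxLDL + pNaKtide libraries lay below all oxLDL libraries. It rose by 0.32 (SE 0.12, edgeR adjusted p = 0.0451) and fell by 0.48 (SE 0.12, edgeR adjusted p = 0.0016), and neither was called with the trend taken out (0.02 and -0.04). The rise was also not called without control replicate 2 or 4 (adjusted p of up to 0.122).

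Across the set, the direction of change followed GC content. The genes that rose with oxLDL had a median GC content of 43.9% (38.6% to 48.0%) and those that fell one of 52.8% (47.0% to 60.1%). For oxLDL + pNaKtide against oxLDL the medians were 53.9% (47.0% to 60.1%) for genes that rose and 44.2% (38.6% to 55.0%) for genes that fell, with overlapping ranges. Over the 37 genes, which share the same libraries, Spearman's correlation of GC content with the log2 change was -0.69 with oxLDL and 0.62 with oxLDL + pNaKtide against oxLDL, and it was 0.20 and -0.20 with the trend taken out. It is a description across genes, which are not independent replicates.

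With the trend taken out, 14 genes were called with oxLDL, 4 higher and 10 lower, where 19.9% of all genes tested were. Of the 19 genes called before, 7 were called in the same direction, 1 in the opposite direction, and 11 were not called. For oxLDL + pNaKtide against oxLDL 22 were called, 16 higher and 6 lower, where 36.9% of all genes tested were. Of the 24 called before, 13 were called in the same direction: Slc25a20, Crat, Hadha, Acaa2, Eci2, Etfb, Acaa1a and Pex14 rose, and Acadm, Decr2, Etfa, Pex5 and Abcd2 fell. Hadhb, Pex2 and Pex13 were called in the opposite direction, and 6 genes were called only with the trend taken out (Acadvl, Echs1, Decr1, Acox3, Pex3 and Pex19).

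**Figure D5:**
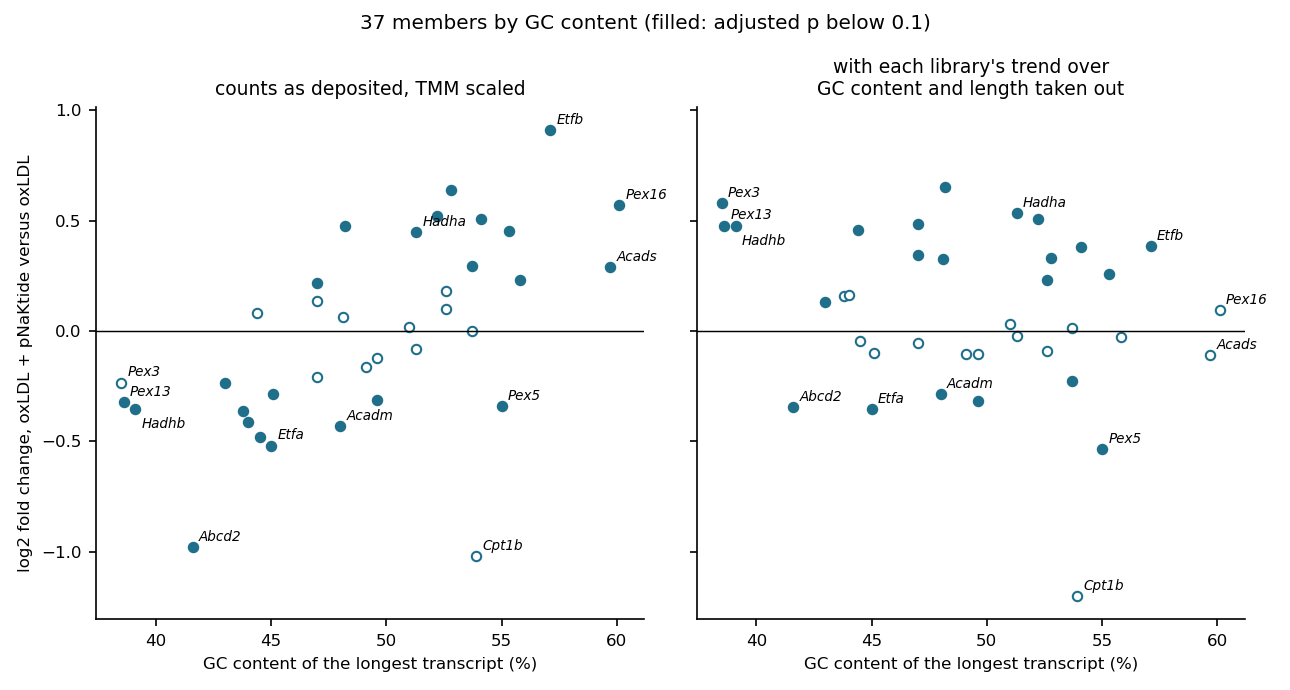
Log2 fold change of oxLDL + pNaKtide against oxLDL for the 37 genes over the GC content of the longest transcript, from the counts after TMM scaling (left) and after removal of the trend over GC content and length from every library (right). Filled points passed an adjusted p of 0.1. Spearman's correlation is 0.62 on the left and -0.20 on the right, and Hadhb, Pex3 and Pex13 lie below 0 on the left and above 0 on the right.

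With IS, 4 of the 37 genes (10.8%) were called against the controls, with the 2 libraries that lay in each other's range kept under their labels, 3 higher and 1 lower, where 7.94% of all genes tested were called. None of the 4 was free of overlap between the groups, where 1.81% of all genes tested were. Acadm was at 340, 330, 324, 228 and 290 CPM with IS, Etfdh at 184, 185, 171, 132 and 160 CPM and Pex2 at 34.9, 32.8, 34.5, 23.8 and 30.8 CPM. In each case replicate 4 lay within the control range given above and the other 4 libraries above it. Pex19 was at 261, 261, 272, 290 and 243 CPM with IS against 266, 316, 351, 325 and 353 CPM in the controls, so that control replicate 1 lay within the IS range.

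The rises with IS were 0.37 for Acadm (SE 0.13, edgeR adjusted p = 0.0958), 0.28 for Etfdh (SE 0.10, edgeR adjusted p = 0.0959) and 0.29 for Pex2 (edgeR adjusted p = 0.0999), and the fall of Pex19 was 0.28 (SE 0.09, edgeR adjusted p = 0.0891). Each of the 4 was lost on leaving out any 1 of the libraries other than control replicate 1 and IS replicate 4, with an adjusted p of up to 0.269. Over the fits without 1 library the log2 change was 0.32 to 0.45 for Acadm, 0.24 to 0.35 for Etfdh, 0.25 to 0.38 for Pex2 and -0.34 to -0.25 for Pex19. Without IS replicate 4, 16 genes were called, 8 higher and 8 lower, and 34.5% of all genes tested. Without control replicate 1 and IS replicate 4, 20 were called, 9 higher and 11 lower, and 45.4% of all genes tested. With the trend taken out only Pex19 was called (-0.37, adjusted p = 0.0431), where 4.11% of all genes tested were, and with scaling by library size alone, which moved the median of all genes from 0.03 to 0.14, 7 were called, all higher, and 83.6% of all called genes were higher against 56.1% before. DESeq2 called 10, with 15.7% of all genes, and the replicate block 9, with 17.0%.

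pNaKtide alone left 0 of 37 genes called by edgeR against the controls, where 0.00497% of all genes tested were called. DESeq2 also called 0, and 2 genes had an unadjusted p below 0.05, where 1233 of all genes did. These were Hadha, with a log2 change of 0.21 and an edgeR adjusted p of 0.752, and Slc25a20, at 0.22 with the same adjusted p. Hadha was the 1 gene of the set whose pNaKtide libraries did not overlap the controls, and 0.934% of all genes tested did not overlap.

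Given with IS, pNaKtide left 0 of 37 genes called by edgeR against IS alone, where 0% of all genes tested were called and 0.834% did not overlap. DESeq2 called 0 of the set, and 1 gene, Echs1, had an unadjusted p below 0.05, where 564 of all genes did. Against the controls, IS + pNaKtide had 0 genes called by edgeR, where 0.358% of all genes tested were called. At an unadjusted p below 0.05 there were 8 genes of the set and 4022 of all genes, and DESeq2 called 5 of the set and 7.38% of all genes. Libraries of IS + pNaKtide and Control were fully apart for 3 genes, Acadm, Pex2 and Pex7, and for 3.79% of all genes tested. Acadm (log2 0.43) and Pex2 (log2 0.35) had the smallest edgeR adjusted p of the set in this comparison, 0.147 for either. Without control replicate 1 and IS replicate 4, 12 genes were called and 32.4% of all genes tested, without control replicate 1 alone 11 and 26.7%, and with a replicate block 5 and 6.64%.

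Cells given oxLDL + pNaKtide differed from the controls in 3 of 37 genes (8.11%), where 5.20% of all genes tested were called. Crat was higher by 0.27 (SE 0.09, edgeR adjusted p = 0.0865), Pex5 lower by 0.36 (SE 0.09, edgeR adjusted p = 0.0233) and Abcd2 lower by 0.43 (SE 0.13, edgeR adjusted p = 0.0636), from the library values given above. For Crat every oxLDL + pNaKtide library lay above every control, for Pex5 and Abcd2 the groups overlapped, and over all genes tested 4.03% did not overlap. The call of Crat was lost without control replicate 1, 2 or 3 or oxLDL + pNaKtide replicate 4 or 5 (adjusted p of up to 0.206), and that of Abcd2 without control replicate 1, 3 or 5 or oxLDL + pNaKtide replicate 4 or 5 (up to 0.254). With scaling by library size alone 7 genes were called, 2 higher and 5 lower, and 9.77% of all genes tested, of which 19.4% were higher against 39.2% before. The replicate block called 5 and 8.21% of all genes, and with the trend taken out 8 were called, 5 higher and 3 lower, and 9.46% of all genes.

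The change with pNaKtide in oxLDL-treated cells was tested against its change in untreated cells in the same edgeR fit. This difference was called for 11 of 37 genes (29.7%), 6 higher and 5 lower, where 24.6% of all genes tested were called. Abcd2 had the largest, a log2 difference of -0.96 (SE 0.18, edgeR adjusted p = 0.0128), from a change of -0.98 with oxLDL and -0.02 without. Etfb followed with 0.70 (SE 0.21, edgeR adjusted p = 0.0323), from 0.91 with oxLDL and 0.21 without, and then Acadm with -0.61 (SE 0.18, edgeR adjusted p = 0.0315) and Etfa with -0.61 (SE 0.22, edgeR adjusted p = 0.0599). With scaling by library size alone, which moved the median of all genes from -0.05 to -0.23, the split was 2 higher and 14 lower, and 24.3% of all called genes were higher against 52.0% before. Removal of the trend gave 8 called genes, where 11.5% of all genes tested were called, and of the 11 only Acadm (-0.51), Pex14 (0.45) and Abcd2 (-0.41) were still called. Etfb was then at 0.24 (edgeR adjusted p = 0.166) and Etfa at -0.41 (edgeR adjusted p = 0.136). Only 4 of the 11 were called on leaving out each library. The count was 4 without pNaKtide replicate 3, 5 without oxLDL + pNaKtide replicate 4 and 18 without control replicate 1, with 10.5%, 12.5% and 37.3% of all genes tested.

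Against the change with pNaKtide in IS-treated cells, 13 of 37 differences were called (35.1%), 8 higher and 5 lower, where 29.3% of all genes tested were called. The largest were Etfb, at 0.83 (SE 0.21, edgeR adjusted p = 0.0115), and Abcd2, at -0.82 (SE 0.18, edgeR adjusted p = 0.00964). Removal of the trend gave 11 called genes, where 17.8% of all genes tested were called, and 6 of the 13 were still called in the same direction (Slc25a20, Crat, Hadha, Etfb, Pex5 and Pex14), with Etfb at 0.335 (edgeR adjusted p = 0.0347) and Abcd2 at -0.235 and not called (edgeR adjusted p = 0.122). Of the 13, 7 were called on leaving out each library. The count was 7 without IS replicate 4 and 8 without oxLDL + pNaKtide replicate 4, with 18.8% and 19.2% of all genes tested, and the replicate block called 20 and 33.2%. With scaling by library size alone, which moved the median of all genes from -0.07 to -0.25, the split was 2 higher and 15 lower, and 24.9% of all called genes were higher against 47.5% before. Both differences share the oxLDL and oxLDL + pNaKtide libraries.

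Levels between genes were compared in the control cells by FPKM, which divides by gene length. The highest were Acadl at 136.3 ± 16.2 FPKM (SD, n = 5), Acaa2 at 125.9 ± 20.02, Crat at 124.7 ± 9.38 and Acads at 124.6 ± 17.4, and these neighbours differed by less than their SD. Cpt2 was at 89.1 and Cpt1a at 18.7 FPKM, and by the annotated exon length they were at 90.2 and 10.6 CPM per kilobase, so the gap between them depends on the length used. The lowest were Pex7 at 0.971, Ehhadh at 0.373 and Cpt1b at 0.0343 FPKM. Of the 36 pairs of neighbours in this order, 21 lay closer than the larger of their SDs. CPM per kilobase of annotated exon gave the same rank for 21 of the 37 genes, and the largest shift was 8 ranks, for Eci1, at 82.7 FPKM against 42.9 by annotated length.

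Other genes of the same pathways moved in both directions as well. Their counts are read against the shares of all genes tested that were called, 36.0% with oxLDL, 48.3% for oxLDL + pNaKtide against oxLDL, 7.94% with IS and 5.20% for oxLDL + pNaKtide against Control. Of 19 further genes of mitochondrial fatty acid oxidation and its control, 7 rose and 6 fell with oxLDL (68.4% called). Those with the smallest adjusted p were Etfrf1, a regulator of the electron transfer flavoprotein (log2 0.62), Acot13 (0.43) and Acadsb (0.43) among those that rose, and Acad12 (-0.48), Acad10 (-0.50) and Hsd17b10 (-0.58) among those that fell. Acaca, listed with them as a source of malonyl-CoA, is a cytosolic enzyme of fatty acid synthesis and not of oxidation, and it was among those that fell (-0.33). With oxLDL + pNaKtide against oxLDL 4 rose, among them Hsd17b10 (0.74), Acad10 (0.27) and Acaca (0.31), and 5 fell, among them Acadsb (-0.66), Acat1 (-0.59) and Etfrf1 (-0.62), a share of 47.4%, near that of all genes. With IS 1 rose and 2 fell, and 1 was lower with oxLDL + pNaKtide than in the controls.

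Of 36 tested peroxisome genes outside the set, 8 rose and 6 fell with oxLDL, a share of 38.9% that was near the 36.0% of all genes. Far1, which makes fatty alcohol for ether lipids, rose by 0.73, Acbd5, an acyl-CoA binding protein of the membrane, by 0.71 and Agps, an enzyme of ether lipid synthesis, by 0.48. Tysnd1, the protease of peroxisomal enzymes, changed by -0.48 and Pex6 by -0.44. Against oxLDL alone, 10 rose with oxLDL + pNaKtide, among them Tysnd1 (0.78), Pxmp2 (0.71) and Pex6 (0.58), and 11 fell, among them Far1 (-1.11), Crot (-0.77) and Idh1 (-0.69), which is 58.3% against 48.3% of all genes. With IS 2 rose and 1 fell, and with oxLDL + pNaKtide against the controls 1 was higher and 2 were lower.

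Of 16 regulators of the pathway 3 rose and 3 fell with oxLDL, 37.5% against 36.0% of all genes. Ppargc1a, a coactivator of mitochondrial genes, was at 8.53 ± 1.61 CPM with oxLDL and 5.22 ± 1.88 CPM in the controls (SD, n = 5), a rise of 0.71 (SE 0.20, edgeR adjusted p = 0.0124). Ppargc1b (0.39) and Prkaa2 (0.65) also rose, and the receptor genes Rxrb (-0.43), Rxra (-0.28) and Ppard (-0.27) fell. In oxLDL + pNaKtide cells 5 rose against oxLDL, among them Rxrb (0.41), Ppard (0.34) and Rxra (0.28), and 6 fell, among them Sirt1 (-0.92), Ppargc1a (-0.71) and Prkaa1 (-0.29), which is 68.8% against 48.3% of all genes. Ppara, the receptor best known for driving fatty acid oxidation in liver, was at 0.900 ± 0.309 CPM with oxLDL and 0.784 ± 0.257 CPM in the controls and was not called (edgeR adjusted p = 0.597). With IS 0 regulators rose and 3 fell.

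Of 8 other PPAR targets 3 rose and 4 fell with oxLDL, 87.5% against 36.0% of all genes. Cd36, the fatty acid translocase, rose by 0.53, Pdk4, a kinase that spares glucose, by 0.27 and Fabp3 by 1.02 at under 1 CPM, and Ucp2 (-0.69) and Plin2 (-0.32) were among those that fell. When pNaKtide was added to oxLDL, Ucp2 (1.02) and Plin2 (0.40) rose, and Pdk4 (-0.71), Cd36 (-0.73) and Ucp3 (-0.35) fell, 62.5% against 48.3% of all genes. With IS 2 rose and 1 fell, and Pdk4 was lower with oxLDL + pNaKtide than in the controls (-0.44). No gene of these 4 lists was called for pNaKtide against Control, IS + pNaKtide against IS or IS + pNaKtide against Control.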

How the data were processed

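RNA of 3T3-L1 cells was sequenced in 6 groups of 5 libraries, and each library was placed in the group of its label. The authors trimmed reads of stranded mRNA libraries (Trimmomatic 0.38), aligned them to GRCm38 (HISAT2 2.1.0) and counted them per gene with GenomicAlignments, per the submitters' processing notes and the study's methods, which also name DESeq2 1.20.0. The counts, as deposited, are raw and not pooled. The normalized signal values deposited by the authors hold these counts after division by the size factor of each library and served only to check the files. The FPKM values deposited by the authors are normalized for gene length and were used for levels between genes, subunit ratios and 1 alternative. Which annotation release was counted, and whether by strand, is not given in the sources used here, and without strand, reads of overlapping genes cannot be told apart: 14 of the 37 genes share exon bases with another gene, 2 on the same strand and 12 on the opposite one.

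Genes with more than 14 counts summed over the 30 libraries were tested with edgeR 4.0.16 in R 4.3.3 (TMM scaling, robust quasi-likelihood fit of all 6 groups, no covariate, two-sided, BH adjustment over all 20139 genes, threshold 0.1). The common biological coefficient of variation was 14.0%. The members, the lists, the trend alternative and the libraries omitted together were chosen with earlier results of these data known. Values in every library are given, per role and direction, for the called member of smallest adjusted p and for up to 8 called members a comparison whose groups did not overlap, and other genes are named up to 3 a list and direction by smallest adjusted p, less those not reported here. Pex16 and some further members are given by range under this rule. Lists of adipocyte, preadipocyte and fibroblast, macrophage and leukocyte, endothelial and brown adipocyte markers were used to check the cells.

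Alternatives were DESeq2 1.42.0, its size factors in edgeR, library size only, more than 14 counts in every library (11567 genes), a minimum of 1 count (29409 genes), a threshold of 0.05, a replicate block, offsets for each library's smooth trend over GC content and length (mgcv 1.9.3), limma-trend (limma 3.58.1) on log2(FPKM + 1), with 0.5 as the lowest mean FPKM (13639 genes), fits restricted to the groups compared, and omission of each library or of control 1 and IS 4 together. The fits were tested on simulated data. The simulated slopes over GC content were drawn per library without regard to group, while the slopes in these data differed between groups. The simulation therefore cannot show how removal of the trend acts in that setting. Names, lengths and GC content came from the GRCm38 annotation, promoters from RefSeq (GRCm38.p6). Tables and figures used Python 3.11.15, numpy 2.4.6, pandas 2.3.3 and matplotlib 3.10.9.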

Additional observations from a re-analysis of the deposited data

Results flagged for a closer look

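Of 222 combinations of a gene and a group, 21 (9.46%) held 1 library far from the other 4 by Dixon's test at 95%, where chance flags about 5%. IS replicate 4 accounted for 6 of them and control replicate 1 for 4. In IS replicate 4, Crat was at 729 CPM (others 543 to 590), Hadha at 585 (411 to 437), Etfb at 115 (70.8 to 77.9) and Acox3 at 51.0 (42.0 to 43.9), while Pex3 was at 27.3 (35.5 to 38.4) and Abcd3 at 65.4 (93.3 to 102). In control replicate 1, Hadha was at 461 CPM (others 506 to 519), Acaa2 at 138 (201 to 212), Eci1 at 74.3 (93.5 to 98.6) and Cpt1b at 0.41 (0 to 0.0946). In oxLDL replicate 3, Acadvl was at 231 CPM (193 to 202), Hadhb at 365 (298 to 308) and Ehhadh at 2.47 (0.967 to 1.27), and in oxLDL replicate 4 Pex10 was at 16.8 (14.8 to 15.2). In oxLDL + pNaKtide replicate 3, Acadl was at 343 CPM (226 to 250), Pex5 at 159 (128 to 136) and Pex7 at 14.5 (9.60 to 11.0), and in replicate 4 of that group Abcd3 was at 49.8 (71.0 to 79.4). In IS + pNaKtide replicate 1, Acads was at 239 CPM (267 to 277) and Acaa2 at 170 (193 to 202), and in pNaKtide replicate 2 Cpt1b was at 0 (0.181 to 0.246).

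The change with pNaKtide in oxLDL-treated cells differed from that in untreated cells, by edgeR's test of the difference, for 11 genes. The log2 differences were 0.35 for Crat, 0.50 for Acaa2, 0.70 for Etfb, 0.355 for Acaa1a, 0.52 for Pex14 and 0.51 for Pex16, and -0.61 for Acadm, -0.61 for Etfa, -0.41 for Etfdh, -0.53 for Pex7 and -0.96 for Abcd2. It differed from the change in IS-treated cells for 13 genes, by 0.32 for Slc25a20, 0.40 for Crat, 0.29 for Hadha, 0.49 for Acaa2, 0.83 for Etfb, 0.39 for Acaa1a, 0.42 for Pex14 and 0.49 for Pex16, and by -0.495 for Acadm, -0.545 for Etfa, -0.38 for Pex5, -0.82 for Abcd2 and -0.44 for Abcd3.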

How the results depend on the processing

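Of 74 called results of single genes, the direction held in every alternative other than the trend settings and, for Eci2 with oxLDL + pNaKtide against oxLDL, library size only (-0.00404). In 980 fits without 1 library, 833 calls held, 147 were lost and 0 turned. All 74 held with limma-trend, with the filter in every library and with the replicate block, and 73 with DESeq2. Values with the trend over GC content and length taken out, and then with the block as well, turned with oxLDL for Etfdh (-0.0653 and -0.0656), Pex7 (-0.0577 and -0.049) and Pex13 (-0.21 and -0.21). With oxLDL + pNaKtide against oxLDL they turned for Acads (-0.11 and -0.11), Hadhb (0.47 and 0.48), Etfdh (0.16 and 0.16), Pex2 (0.13 and 0.13), Pex7 (0.16 and 0.14), Pex10 (-0.0275 and -0.0257) and Pex13 (0.48 and 0.48), and for Etfdh in the difference from untreated cells (0.0455 and 0.0445). The cause was not tested.

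Without 1 library, the count of genes called with oxLDL ranged from 14 to 23 and with IS from 0 to 16. It ranged from 20 to 25 for oxLDL + pNaKtide against oxLDL, from 1 to 5 for oxLDL + pNaKtide against Control, from 0 to 11 for IS + pNaKtide against Control, from 4 to 18 for the difference from untreated cells and from 7 to 18 for the difference from IS-treated cells, and stayed at 0 for pNaKtide and for IS + pNaKtide against IS. For IS, with 4 called, the count was 0 at an adjusted p of 0.05, with at least 1 count or with the compared groups alone, 1 with the trend out, 2 with RLE, 7 with library size only or with the filter in every library, 10 with DESeq2 and 20 without control 1 and IS 4. For oxLDL + pNaKtide against Control, with 3 called, it was 0 with the compared groups alone, 1 at 0.05, 6 with limma-trend, 7 with DESeq2, library size only or the filter in every library, and 8 with the trend out. For IS + pNaKtide against Control, with 0 called, it was 2 with the filter in every library or the trend out, 5 with DESeq2 or the compared groups alone, and 12 without control 1 and IS 4. The difference from untreated cells, with 11 called, gave 6 at 0.05 and 22 without control 1 and IS 4. Apart from the fits with a replicate block, given next, the other settings stayed within 1.5 times the main count.

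With the replicate block the counts were 21 for oxLDL, 9 for IS, 26 for oxLDL + pNaKtide against oxLDL, 5 for oxLDL + pNaKtide against Control, 5 for IS + pNaKtide against Control, and 15 and 20 for the 2 differences, and 9 and 3 for the last 2 comparisons with Control with the trend out as well. Same-numbered libraries did not pair by the rule that every pair correlates above 0.1: the lowest correlation of their deviations was -0.661 to -0.0969 over the 7 comparisons. Libraries that correlated best with their own number were at most 5 of 10, for IS and for oxLDL + pNaKtide against Control, where the median was 0.327 and 0.255 against -0.20 and -0.164 for other numbers, a hint from the data and not from the design. Counts per library limit Cpt1b and Ehhadh, which have no value under the filter in every library or on FPKM.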
